A study of Homo sapiens with 12 samples.

Results

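NONO peaks in coding exons are the peaks that the authors annotated to a coding sequence (CDS), a start codon or a stop codon in 6 eCLIP peak lists from 22Rv1, a human prostate cancer cell line. There were 430 such peaks among 26351, which is 1.63% of all peaks. Of these, 428 were annotated CDS, 2 stop codon and 0 start codon. They lay in 160 genes, of 1678 genes with a peak of any class. Merged where 2 or more had 1 nt or more of the same strand in common, they formed 303 sites.

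In eCLIP, UV light links proteins to RNA in living cells, the protein is pulled down with an antibody, and the attached RNA is sequenced and compared with an input library. Cells were given 20 µM SKBG-1(R) or 20 µM SKBG-1(S), each in 0.04% DMSO, or 0.04% DMSO alone, for 4 h before 400 mJ of UV light. The study's title places these compounds among small molecules that target NONO, and the R and S in their names mark stereoisomers. Each treatment had 2 replicates of NONO immunoprecipitation with input, 12 libraries in all, and each replicate gave 1 list. No library came from cells without DMSO or without UV light. The labels do not say whether replicates were separate cultures, so the p-values measure the spread between these lists, which may be technical.

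The lists differed widely in length, from 669 peaks in DMSO replicate 1 to 14847 in SKBG-1(R) replicate 2. No read counts were given, so the depth of each library is unknown. SKBG-1(R) replicate 2 stood apart and held 61.4% of the coding-exon peaks and 56.3% of all peaks. Without it, 166 coding-exon peaks of 11504 peaks remained, in 63 genes and 99 sites. Marker genes of luminal prostate cells can be checked here only for peaks: TMPRSS2 held 5, and KLK3, KLK2, FOXA1 and HOXB13 held 0, which says nothing of their expression.

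NONO is a nuclear protein of the DBHS family, with SFPQ and PSPC1, and a core protein of paraspeckles, nuclear bodies that form around the NEAT1 noncoding RNA. It binds RNA and DNA and takes part in transcription, splicing and the retention of RNA in the nucleus. A coding exon is the part of a transcript that is kept after splicing and translated, while introns are removed from the nuclear precursor. One stretch of genome can be coding in one transcript of a gene and intronic in another, so the annotation of a peak depends on the transcripts considered.

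The coding sequence under 5 sites with peaks in 3 or more lists is shown because these sites do not rest on 1 library. Those of DRD4, OAZ1, PTMA and ALPK3 were in 5 or 6 lists, and that of DCUN1D4 was in 3. Sequences are those of GENCODE 29 transcripts (GRCh38), read 5′ to 3′ on the strand of the gene, and hold coding bases of the transcript only. The stretches of DRD4 and ALPK3 are also coding in the principal transcript of the gene, the isoform ranked highest by APPRIS. Those of OAZ1, PTMA and DCUN1D4 are not coding in it and are coding only in other annotated isoforms. Capitals mark the longest stretch that lay under coding-exon peaks of the greatest number of lists. In DRD4, the gene of the dopamine D4 receptor, the site at chr11:637310-637452 (plus strand) covers coding positions 6 to 148 in exon 1, and its capitals lay under peaks of all 6 lists. In OAZ1, which encodes antizyme, an inhibitor of ornithine decarboxylase, the coding bases lie at chr19:2270474-2270676 (plus strand), with capitals under peaks of 5 lists. In PTMA, which encodes prothymosin alpha, an acidic nuclear protein, they lie at chr2:231710427-231710567 (plus strand), with capitals under peaks of 3 lists. In ALPK3, an alpha kinase gene known from heart muscle, the stretch at chr15:84817317-84817439 (plus strand) is the part under peaks of 4 lists with 20 bases to each side. In DCUN1D4, of a family that helps attach NEDD8 to cullins, the bases lie at chr4:51843611-51843742 (plus strand), with capitals under peaks of 3 lists.
DRD4 exon 1: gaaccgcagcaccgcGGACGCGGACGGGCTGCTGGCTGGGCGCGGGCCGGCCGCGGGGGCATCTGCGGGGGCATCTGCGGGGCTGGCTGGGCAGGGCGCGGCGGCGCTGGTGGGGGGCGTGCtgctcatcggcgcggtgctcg
OAZ1: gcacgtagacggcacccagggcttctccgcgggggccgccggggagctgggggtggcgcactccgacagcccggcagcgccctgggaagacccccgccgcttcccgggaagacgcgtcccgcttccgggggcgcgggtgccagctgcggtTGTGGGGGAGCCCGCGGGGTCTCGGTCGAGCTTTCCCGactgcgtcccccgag
PTMA: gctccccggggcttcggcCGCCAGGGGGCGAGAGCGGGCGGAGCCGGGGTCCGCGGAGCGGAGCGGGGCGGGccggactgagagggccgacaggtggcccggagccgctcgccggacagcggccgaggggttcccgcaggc
ALPK3: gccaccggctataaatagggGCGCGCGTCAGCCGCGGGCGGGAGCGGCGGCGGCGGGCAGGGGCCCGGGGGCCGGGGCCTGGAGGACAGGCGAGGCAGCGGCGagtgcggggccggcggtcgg
DCUN1D4: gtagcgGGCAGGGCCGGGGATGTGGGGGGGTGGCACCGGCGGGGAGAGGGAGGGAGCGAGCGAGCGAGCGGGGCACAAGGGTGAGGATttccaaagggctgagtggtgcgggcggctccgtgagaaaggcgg
G and C made up 81.1% of the DRD4 stretch, 76.8% of that in OAZ1, 82.3% in PTMA, 82.1% in ALPK3 and 72.0% in DCUN1D4. The letters GGGG began at 8, 10, 6, 6 and 7 positions in that order of genes. Overlapping occurrences count separately, so a longer run of G counts more than once.

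For the range of base make-up among recurrent sites, 4 further sites in 3 lists are shown. In ATXN2, the gene of the RNA-binding polyglutamine protein ataxin-2, a site in 3 lists covers coding bases 2 to 57 of a shorter transcript at chr12:111597749-111597804 (minus strand). In TMEM259, which encodes the endoplasmic reticulum protein membralin, the coding bases of a site in 3 lists lie at chr19:1017279-1017333 (minus strand). In BBC3, the gene of the pro-apoptotic protein PUMA, those of a site in 3 lists lie at chr19:47228158-47228243 (minus strand). The start of exon 2 of DRD4 also lay under coding-exon peaks of 3 lists, at chr11:639433-639459 (plus strand), and the sequence holds that part of the exon only. The peak of SKBG-1(R) replicate 2 had 27 coding bases of 67 nt, and that of SKBG-1(S) replicate 2 had 15 of 50.
ATXN2, shorter transcript: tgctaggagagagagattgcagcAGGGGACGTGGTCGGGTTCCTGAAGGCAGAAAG
TMEM259: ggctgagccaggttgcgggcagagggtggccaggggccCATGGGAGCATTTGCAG
BBC3: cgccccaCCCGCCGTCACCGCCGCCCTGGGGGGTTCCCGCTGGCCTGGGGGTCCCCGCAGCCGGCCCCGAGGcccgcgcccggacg
DRD4 exon 2: GTCCAGGGTGGCGCGtggctgctgagc
The GC content was 57.1% in this ATXN2 stretch and 69.1% in TMEM259, against 86.0% in BBC3 and 74.1% in the stretch of DRD4 exon 2. The BBC3 and DRD4 stretches are coding in the principal transcript, and those of ATXN2 and TMEM259 are not.

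NONO peaks in coding exons lay mainly at the beginning of the annotated coding sequence of the transcript each was placed on. That was the transcript with most coding bases under the peak, which was not always the principal one. A coding transcript of GENCODE 29 could be found for 429 of the 430 peaks, the exception being the 1 peak of CNOT6L. Of the 430, 325 (75.6%) were in the first coding exon of their transcript and 284 (66.0%) in its first exon. Internal coding exons held 59 peaks, and the last coding exon of transcripts with at least 2 held 45. The middle of the coding part of a peak lay a median of 140 nt from the first annotated coding base. In some transcripts, such as that of the main PTMA site, the annotated coding sequence does not begin with ATG. Positions there need not be distances from a start codon. The middle of the whole peak lay a median of 394 nt from the start of the transcript along the genome, on either side of it. The middle of the coding part was within the first 300 coding nt for 295 peaks (68.6%) and within the first 100 for 171 (39.8%).

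The share in the first coding exon was 92.1 and 69.7% in the 2 SKBG-1(R) lists, 90.0 and 83.3% in the SKBG-1(S) lists, and 73.3 and 82.1% in the DMSO lists. The treatments overlapped, and over all lists but SKBG-1(R) replicate 2 the share was 84.9%. First coding exons held 22.6, 24.5, 31.8, 26.5, 19 and 24.3% of the coding bases of the same transcripts, averaged over peaks, in that order of lists. Peaks exceeded this share by 57.4 ± 8.61 percentage points (SD, n = 6 lists) and did so in 6 of 6 lists (exact two-sided sign-flip test, p = 0.0313, the smallest that 6 lists allow; 0.0313 after Benjamini-Hochberg adjustment over 2 comparisons). The lists share sites, so the 6 differences are not fully independent, and this comparison was added after the data were seen. Among the 224 peaks that were coding in the principal transcript of the gene, 147 (65.6%) were in its first coding exon. For these 224 the excess was 48.4 percentage points, again with an exact sign-flip p of 0.0313.

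**Figure D1:**
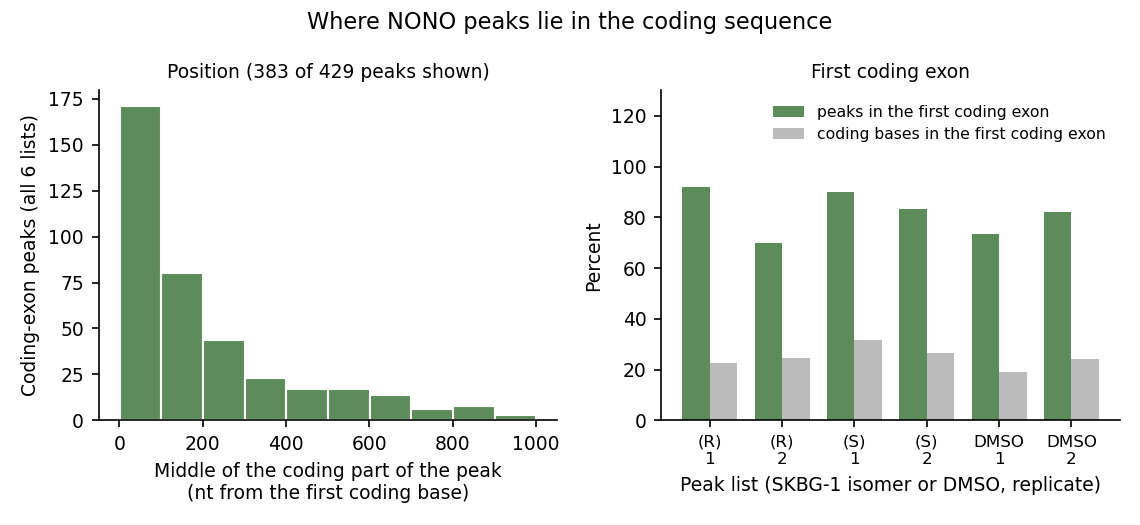
The left panel counts coding-exon peaks of all 6 lists by the distance in nt of the middle of the coding part of the peak from the first coding base, in bins of 100 nt, for peaks within 1000 nt. The right panel gives, for each list, the percent of peaks in the first coding exon (green) and the percent of coding bases there (grey). The first bin is the tallest, with 171 peaks, and green exceeds grey in 6 of 6 lists.

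Most of these peaks were coding in some annotated transcripts and intronic in others. In the authors' own annotation, 288 (67.0%) lay in an intron, with no exon, of at least 1 other transcript. A further 44 carried an intron label only from transcripts that also have an exon there. Over all 430, 99 (23%) carried a 5′ UTR label and 30 (6.98%) a 3′ UTR label. The principal transcript, the isoform ranked highest by APPRIS and then the longest, was coding under 224 peaks (52.1%) and had no exon under 203 (47.2%). The share that was coding in the principal transcript was 52.6 and 56.1% in the SKBG-1(R) lists, 35.0 and 40.7% in the SKBG-1(S) lists, and 60 and 46.2% in the DMSO lists.

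Peaks often ran across the border of the coding exon. All bases were coding in some transcript for 226 peaks (52.6%), and fewer than 50% were for 140 (32.6%). Fewer than 20 coding bases were read for 107 peaks (24.9%). The exon end at the 5′ splice site was crossed by 107 peaks and the exon start at the 3′ splice site by 26. The first coding base was covered by 66 peaks, 59 of them in transcripts whose coding sequence begins with ATG, although 0 were assigned to the start codon class. Both stop codon peaks came from SKBG-1(R) replicate 2. One lay in ADAT3, a subunit of a tRNA deaminase, at chr19:1913150-1913210 with a deposited log2 enrichment over input of 3.06. The other lay in SLC19A1, the reduced folate carrier, at chr21:45514913-45514977 with 4.38.

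The peaks of 1 list were often pieces of a longer bound stretch. Another peak of the same list abutted 173 of them (40.2%), and 8 had the same deposited values as an abutting member. Within 100 nt in the same list, 199 had another coding-exon peak, 113 an intronic peak, 44 a 5′ UTR peak and 157 no other peak. Peaks were 4 to 233 nt wide, with a median of 69.5 nt.

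Most sites were seen once. Of the 303 sites, 255 had a coding-exon peak in 1 list, 27 in 2, 13 in 3, 2 in 4, 5 in 5 and 1 in 6. Sites in 3 or more lists numbered 21, or 6.93%. Over coding-exon sites and sites of all other peaks together, merged in the same way, 9.44% were in 3 or more lists. Coding-exon sites were merged from coding-exon peaks alone, while the other sites pool all other classes. A peak of another class at a coding-exon site is not counted, so shares of the 303 sites and of other sites are not on an equal footing. SKBG-1(R) replicate 2 alone held 209 sites (69.0%), against 60.4% of sites of other peaks. Without that list, 10 sites remained in 3 or more lists.

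The 21 recurrent sites lay in 17 genes, 20 of them in the first coding exon of their transcript and 7 coding in the principal transcript. Their median GC content ran from 25 to 90.4%, and it was at least 70% in 17. The 25% was at the second CYHR1 site and rests on few coding bases. There the SKBG-1(R) replicate 2 peak, 51 nt wide, had the middle of its coding part at coding base 3. A coding-exon peak was present at 11 and 18 of the 21 sites in the SKBG-1(R) lists, 9 and 18 in the SKBG-1(S) lists, and 8 and 14 in the DMSO lists. At 9 of the 21 sites some list had a peak of another class. A list without a coding-exon peak at a site can therefore still have a peak there. The log2 enrichments below are the authors' values for 1 immunoprecipitation against its own input. They describe peaks within a list and are not comparable in size between lists.

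**Figure D2:**
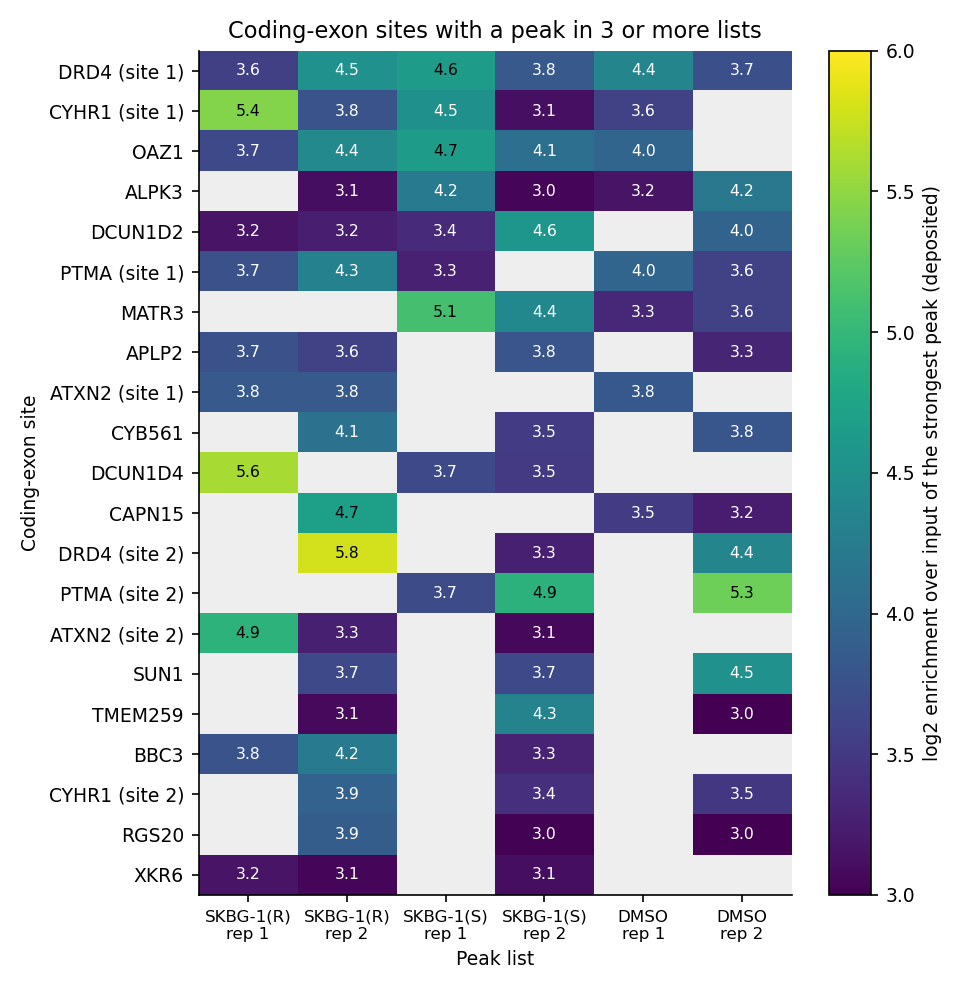
Rows are the 21 coding-exon sites with a coding-exon peak in 3 or more lists and columns are the 6 lists. Colour and number give the deposited log2 enrichment over input of the strongest coding-exon peak, and grey means no coding-exon peak. Site 1 of DRD4 has values in all 6 columns, and MATR3 has none in the 2 SKBG-1(R) columns. A grey cell can still hold a peak of another class.

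DRD4 was the gene with the most coding-exon peaks. It held 25 coding-exon peaks of 28 peaks in all, 18 in exon 1, 3 in exon 2 and 4 in exon 3. The exon 1 site had 14 peaks. Its strongest peak had a log2 enrichment of 3.56 and 4.51 in the SKBG-1(R) lists, 4.64 and 3.84 in the SKBG-1(S) lists, and 4.37 and 3.73 in the DMSO lists. Every list had peaks within the same 143 nt at the beginning of this receptor gene. Among the peaks of its own list, that peak stood at percentiles 30.1, 85.3, 92.5, 68.4, 89.3 and 63.1 in the same order. The exon 2 site had 5.80 in SKBG-1(R) replicate 2, at percentile 99.4 of that list, with 3.27 in SKBG-1(S) replicate 2 and 4.36 in DMSO replicate 2.

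CYHR1, a gene for a cysteine- and histidine-rich protein, came next with 19 coding-exon peaks of 98. Its main site had 5.44 and 3.77 in the SKBG-1(R) lists, 4.50 and 3.12 in the SKBG-1(S) lists, and 3.59 in DMSO replicate 1. DMSO replicate 2 had no coding-exon peak at that site. OAZ1 held 14 of 42. Its main site, chr19:2270474-2270735, had 3.66 and 4.42 in the SKBG-1(R) lists, 4.66 and 4.09 in the SKBG-1(S) lists, and 3.98 in DMSO replicate 1. All 3 treatments thus had a coding-exon peak there, and it was again DMSO replicate 2 that had no peak of this class.

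PTMA held 10 of 41 and was, with DRD4 and CYHR1, 1 of 3 genes with a coding-exon peak in all 6 lists. Its main site had 3.75 and 4.32 in the SKBG-1(R) lists, 3.28 in SKBG-1(S) replicate 1, and 3.98 and 3.59 in the DMSO lists. A second PTMA site, chr2:231710643-231710753, had 3.70 and 4.92 in the SKBG-1(S) lists and 5.34 in DMSO replicate 2, and no coding-exon peak in the SKBG-1(R) lists. SKBG-1(R) replicate 2 held 16 PTMA peaks in all, 2 of them coding-exon peaks. Whether any of the others overlaps this second site is not given here. In ALPK3, where 8 of 9 peaks were coding, the main site had 3.12 in the second SKBG-1(R) list, 4.24 and 3.04 in the SKBG-1(S) lists, and 3.16 and 4.20 in the DMSO lists. The site of DCUN1D2, of the same family as DCUN1D4, had 3.16 and 3.25 in the SKBG-1(R) lists, 3.37 and 4.57 in the SKBG-1(S) lists, and 3.95 in DMSO replicate 2. The main sites of PTMA, ALPK3 and DCUN1D2 thus had no coding-exon peak in 1 list each, a different list for each gene.

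Of the sites in 4 lists, that of MATR3, at chr5:139294012-139294175, had no coding-exon peak in the SKBG-1(R) lists. MATR3 encodes matrin 3, an RNA-binding protein of the nuclear matrix. Its site had 5.12 and 4.41 in the SKBG-1(S) lists and 3.33 and 3.58 in the DMSO lists. The SKBG-1(R) lists held 2 and 2 MATR3 peaks of other classes, and whether these overlap the site is not given here. The site of APLP2, of the amyloid precursor family, had 3.75 and 3.58 in the SKBG-1(R) lists, 3.79 in SKBG-1(S) replicate 2 and 3.31 in DMSO replicate 2. These are presences in called lists of very unlike length, and no difference between treatments at a single site was tested.

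Of the 13 sites in 3 lists, those of CYB561, CAPN15, SUN1, TMEM259 and RGS20, exon 2 of DRD4, and the second CYHR1 site were in both a compound list and a DMSO list. So were the first ATXN2 site, at chr12:111598718-111598898 with 3.83 in each of its 3 lists, and the second PTMA site. CYB561 encodes a transmembrane electron carrier, CAPN15 a calpain-family protease, SUN1 a protein of the inner nuclear membrane, and RGS20 a regulator of G protein signalling. The sites of DCUN1D4, BBC3 and XKR6 and the second ATXN2 site had coding-exon peaks in compound lists only. Elsewhere in BBC3, DMSO replicate 2 had 1 coding-exon peak. Of all 303 coding-exon sites, 86.8% had coding-exon peaks in compound lists and in no DMSO list, against 78.3% of sites of other peaks. DMSO peaks of another class were not counted at coding-exon sites, so these shares are not on an equal footing. DCUN1D4 had 5.60 in the first SKBG-1(R) list, at percentile 99.3 of that list, and 3.66 and 3.51 in those of SKBG-1(S). In BBC3 the values were 3.77 and 4.24 in the SKBG-1(R) lists and 3.30 in SKBG-1(S) replicate 2.

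Few coding-exon sites had a coding-exon peak in both lists of 1 treatment and in no other list. SKBG-1(R) had 4 such sites (1.32%), where 0.833% of all sites had this pattern. SKBG-1(S) had 0, with 0.109% of all sites, and DMSO had 0, with 0.0182%. At coding-exon sites only coding-exon peaks were counted, so a peak of another class in another list would not show. Sites of other peaks pool all other classes, so these shares are not on an equal footing. The 4 SKBG-1(R) sites lay in ATXN2 at chr12:111599027-111599102, in SKI, EHMT1 and LARP1. SKI encodes a co-repressor of SMAD proteins, EHMT1 a histone H3 lysine methyltransferase, and LARP1 a protein that binds mRNAs of the translation machinery. Their log2 enrichments were 3.72 and 3.40 in ATXN2, 3.75 and 3.35 in SKI, 3.98 and 3.28 in EHMT1, and 3.31 and 3.04 in LARP1.

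The coding bases of the SKBG-1(R) sites in SKI (chr1:2228767-2228791, plus strand), EHMT1 (chr9:137619029-137619046, plus strand) and LARP1 (chr5:154755811-154755875, plus strand) are shown because no other list had a coding-exon peak there. Those of SKI and EHMT1 begin with the ATG start codon and are coding in the principal transcript, while that of LARP1 is not.
SKI: ATGGAGGCGGCGGCAGGCGGCCGcg
EHMT1: ATggccgccgccgatgcc
LARP1: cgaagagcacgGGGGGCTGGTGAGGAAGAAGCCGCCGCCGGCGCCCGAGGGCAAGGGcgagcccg
Capitals mark the bases under peaks of both SKBG-1(R) lists. In EHMT1 these are the A and T of the start codon alone, so the peaks lay mostly upstream of the coding sequence.

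Coding-exon peaks were concentrated in few genes. The 10 genes with the most held 132 (30.7%), while 78 genes had 1 peak each and 117 genes had them in 1 list. SKBG-1(R) replicate 2 was the sole source for 97 genes. After DRD4, CYHR1, OAZ1 and ATXN2 (14 of 106 peaks), the next were CAPN15 with 13 of 183, PTMA, RBM14 with 10 of 34, TMEM179 with 10 of 124, FBRSL1 with 9 of 236 and ALPK3. TMEM179 and FBRSL1 had coding-exon peaks in SKBG-1(R) replicate 2 only. An intronic peak was also present in 128 of the 160 genes and a 5′ UTR peak in 68, while 25 genes had coding-exon peaks only. SPAG1 was the one of these with the most, 6 peaks in SKBG-1(S) replicate 1 and DMSO replicate 1, and was named after its values were seen. They were abutting pieces of 4 to 13 nt with the same deposited values within a list, and so formed 1 stretch in each of the 2 lists.

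The names with the highest deposited values in each treatment follow, taken over lists whose values are not on 1 scale, so their order is no ranking of binding. In the SKBG-1(R) lists the 5 coding-exon peaks of highest log2 enrichment were in DRD4 exon 2 (5.80), CAPN15 (5.69), DCUN1D4 (5.60), OAZ1 (5.47) and CYHR1 (5.44). In the SKBG-1(S) lists they were PSD (5.61), MATR3 (5.12), PTMA (4.92), OAZ1 (4.66) and DRD4 exon 1 (4.64). In the DMSO lists they were PTMA (5.34), RBM14 (5.23), SUN1 (4.52), and exons 1 (4.37) and 2 (4.36) of DRD4. DRD4 appeared in all 3 sets, PTMA in those of SKBG-1(S) and DMSO, and OAZ1 in those of SKBG-1(R) and SKBG-1(S). PSD encodes an exchange factor for the small GTPase ARF6. Some of these peaks held few coding bases. The middle of the coding part was at coding base 10 in the PSD peak, 180 nt wide. It was at base 2008 of 2010 in the RBM14 peak, 83 nt wide.

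Genes of paraspeckle proteins, the compartment of NONO itself, were among those with coding-exon peaks. Of 18 listed, 6 had a peak of any class and 3 had coding-exon peaks, namely RBM14, MATR3 and DAZAP1. Over all genes with a peak of any class, 9.54% had one in a coding exon. All 10 peaks of RBM14 lay in coding exons 2 and 3, and 0 in the first. Its SKBG-1(R) peaks, 2 and 5, were all in coding exon 2, with log2 enrichments from 3.20 to 3.90. A site at the end of the coding sequence, chr11:66626660-66626746, had 3.74 in SKBG-1(S) replicate 2 and 5.23 in DMSO replicate 2. DAZAP1, an RNA-binding splicing regulator, had 2 coding-exon peaks in 1 list.

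In other functional groups, between 10.3 and 25% of the genes with any peak had coding-exon peaks, on 1 to 5 genes a group. Of 35 listed splicing and RNA-binding proteins, 15 had any peak and 2 had coding-exon peaks, LARP1 with 6 and PTBP1 with 1. Of 63 chromatin regulators, 36 had any peak and 5 had coding-exon peaks. ARID1A, a subunit of the SWI/SNF remodelling complex, had 7, with 6 from the first SKBG-1(R) replicate and 1 from the second. All 7 were in its first coding exon, with log2 enrichments from 3.00 to 3.82, and none overlapped a peak of the other SKBG-1(R) list. The peak of the second replicate, at chr1:26696792-26696846, lay close to one of the first, at chr1:26696773-26696788. GSE1 had 5, EHMT1 2, and BAHCC1 and the demethylase gene KDM4B 1 each.

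Of 84 transcription factors, 29 had any peak and 3 had coding-exon peaks, SKI and the inhibitory SMAD gene SMAD6 with 2 each and E2F3 with 1. Of 37 signalling genes, 18 had any peak and 4 had coding-exon peaks, ARHGEF2 with 3 and AXIN1, DVL1 and PMEPA1 with 1 each. Of 33 cytoskeleton and adhesion genes, 14 had any peak and 2 had coding-exon peaks, PLEC with 4 and ACTN1 with 1. Cell cycle genes (30 listed, 9 with any peak) held 1, in CCND1, and transporters (19 listed, 6 with any peak) 1, in SLC6A9. The CCND1 peak had 1 coding base of 61 nt. Of 21 genes of translation and amino acid metabolism 4 had any peak, and LARP1 was the one with coding-exon peaks. Of 23 prostate cancer genes 11 had any peak, and TMPRSS2, a serine protease gene, had 2 coding-exon peaks and PMEPA1 had 1. The lists were compiled with earlier results known, so these counts are descriptions and no list was tested.

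As deposited, the share of peaks in coding exons overlapped between each compound and DMSO. It was 1.95 and 1.78% in the SKBG-1(R) lists, 1.62 and 1.36% in the SKBG-1(S) lists, and 2.24 and 1.06% in the DMSO lists. The counts behind these shares were 38 of 1953 and 264 of 14847 for SKBG-1(R), 20 of 1237 and 54 of 3967 for SKBG-1(S), and 15 of 669 and 39 of 3678 for DMSO. The DMSO lists were the highest and the lowest of the 6 and enclosed both compounds. The 95% Wilson intervals were 1.42 to 2.66% and 1.58 to 2.00% for SKBG-1(R), 1.05 to 2.48% and 1.04 to 1.77% for SKBG-1(S), and 1.36 to 3.67% and 0.777 to 1.45% for DMSO, and cover counting error only.

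SKBG-1(R) averaged 1.86 ± 0.119% and DMSO 1.65 ± 0.836% (SD, n = 2 lists each), a difference of 0.21 percentage points. The exact two-sided permutation p was 1, and pairs of lists differed by between -0.464 and 0.885. SKBG-1(S) averaged 1.49 ± 0.181% and differed from DMSO by -0.16 points (exact permutation p = 1), with pairs between -0.881 and 0.556. Between the stereoisomers, SKBG-1(R) was 0.373 points above SKBG-1(S), with pairs between 0.161 and 0.584. The lists of the isomers did not overlap, but 2 lists against 2 cannot give an exact p below 0.333, which this comparison had, and it was 1 after Benjamini-Hochberg adjustment over 3 pairs. The comparisons with DMSO share the DMSO lists and rest on them. Without DMSO replicate 1 SKBG-1(R) was 0.802 points and SKBG-1(S) 0.429 points above DMSO, and without DMSO replicate 2 they differed from it by -0.38 and -0.753. A limit of log2 enrichment of at least 4 turned the isomer difference to -0.116.

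With abutting peaks joined, an alternative added after the data were seen, both SKBG-1(R) lists (1.85 and 1.85%) lay above both DMSO lists (1.54 and 1.15%) and both SKBG-1(S) lists (1.26 and 1.47%). SKBG-1(R) was then 0.497 percentage points above DMSO and 0.482 above SKBG-1(S). Each had an exact permutation p of 0.333, the smallest possible, and 0.5 after adjustment over 3 pairs. SKBG-1(S) differed from DMSO by 0.0151 points (exact p = 1).

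**Figure D3:**
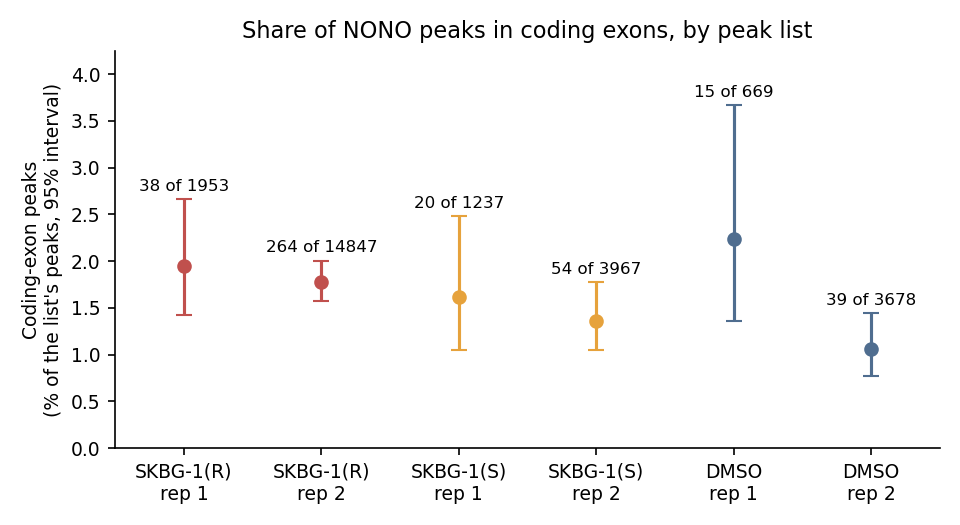
Points give the percent of each list's peaks that lay in coding exons, for SKBG-1(R), SKBG-1(S) and DMSO replicates, with 95% Wilson intervals as bars and the counts above. DMSO replicate 1, at 2.24%, and DMSO replicate 2, at 1.06%, lie above and below all compound lists.

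Neither the strength nor the width of coding-exon peaks differed from that of other peaks past the threshold, which does not show that they are alike. In the first SKBG-1(R) list, coding-exon peaks had a median log2 enrichment of 3.67 and other peaks 3.77, and in the second 3.55 and 3.76. For SKBG-1(S) these medians were 3.58 and 3.76 in the first list, and 3.60 and 3.64 in the second. For DMSO they were 3.65 and 3.72 in the first list, and 3.59 and 3.59 in the second. Coding-exon peaks were thus lower in 5 lists and equal in 1, by a mean of -0.099 ± 0.0793 (SD, n = 6). The exact sign-flip p was 0.0625, or 0.125 after adjustment over 4 features, so the difference did not pass the threshold of 0.05. Among peaks with a log2 enrichment of at least 4 the difference turned to 0.15.

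The median width differed by -0.333 ± 4.07 nt (SD, n = 6; exact p = 0.813, the same after adjustment), and its direction depended on the setting. Overlap with the other list of the same treatment was 50.0 and 12.1% of coding-exon peaks in the SKBG-1(R) lists, 75 and 24.1% in the SKBG-1(S) lists, and 33.3 and 15.4% in the DMSO lists. Of other peaks it was 54.5 and 8.94% in the SKBG-1(R) lists, 54.0 and 18.6% in the SKBG-1(S) lists, and 33.2 and 6.76% in the DMSO lists. Coding-exon peaks were higher in 5 of 6 lists, by a mean of 5.65 ± 8.77 percentage points (SD), with an exact p of 0.156 and an adjusted p of 0.208. The mean was 2.58 points without SKBG-1(S) replicate 1 and 2.19 where overlap meant at least 50% of the peak. In each treatment the shorter of the 2 lists had the larger share. The 2 lists of a treatment were each compared with the other, so their values rest on the same overlaps. The 6 differences are therefore not independent, and the exact p does not allow for this.

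Coding-exon peaks were rich in G and C. Their coding bases had a median GC content of 81.8 and 75% in the SKBG-1(R) lists, 81.4 and 76.9% in the SKBG-1(S) lists, and 81.8 and 77.1% in the DMSO lists. The whole coding sequences of the same transcripts had medians of 59.8 and 65.3% in the SKBG-1(R) lists, 65.2 and 65.0% in the SKBG-1(S) lists, and 61.9 and 64.8% in the DMSO lists. Peaks exceeded the coding sequence they lay in by 15.7 ± 6.4 percentage points (SD, n = 6 lists, median per list), in 6 of 6 lists (exact sign-flip p = 0.0313, also after adjustment over 2). Against the first coding exon alone, for peaks in it, the excess was 3.65 points, with the same exact p. Both comparisons were added after the data were seen.

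Other exonic peaks, 2120 in all, of which 1342 were in 5′ UTRs, were also GC-rich. Their medians were 77.5 and 71.9% in the SKBG-1(R) lists, 78.1 and 74.4% in the SKBG-1(S) lists, and 77.6 and 73.3% in the DMSO lists. Coding-exon peaks were higher by 3.53 ± 0.704 percentage points (SD, n = 6), in 6 of 6 lists. The exact p of 0.0313 became 0.125 over the 4 features and did not pass. Among peaks with a log2 enrichment of at least 4 the difference was 0.263 points (exact p = 0.906). Against 5′ UTR peaks alone the difference was 0.706 points (exact p = 0.25). Intronic peaks could not be included, because no genome sequence was used here.

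**Figure D4:**
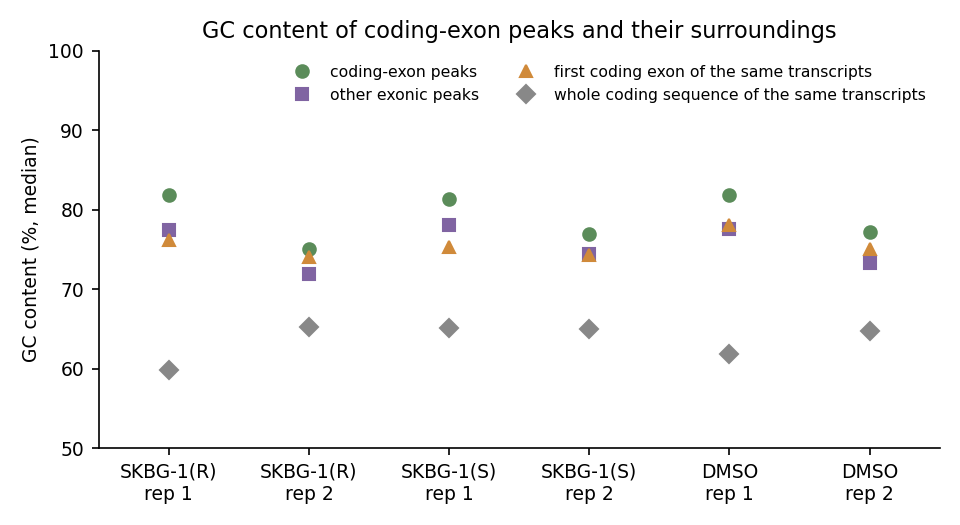
Points give, for each list, the median GC content in percent of coding-exon peaks, of other exonic peaks, and of the first coding exon and the whole coding sequence of the transcripts that hold the coding-exon peaks. The axis starts at 50%. Coding-exon peaks, at 75 to 81.8%, lie above the whole coding sequence, at 59.8 to 65.3%, in all 6 lists.

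Short letter motifs were also counted at the level of sites. A window of 60 coding nt around the strongest peak was read for 302 of the 303 sites and searched on the transcript's strand only. The same motifs were counted in windows of 60 nt tiling the coding sequence of the principal transcript of each gene. GGGG was present in 48.3% of site windows, against 23.7% of windows of the same genes, 21.4% of windows in the first 300 nt of all coding sequences and 17.0% of all windows. CGCG was present in 45.4%, against 16.1, 12.9 and 6.74%, and GCGGC, which can overlap it, in 35.8%, against 15.9, 11.2 and 6.29%. The site windows thus held these motifs more often than windows of their own genes. The motifs consist of G and C only, so their counts are not separate from the GC content. G and C made up 72.2% of bases in site windows and 61.5% in windows of the same genes. Windows of equal GC content were not compared.

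GGAGG was found in 23.2% of site windows, against 17.5, 13.9 and 12.0%. AGGGA, at 4.97% against 5.33, 6.17 and 6.22%, and TTTT, at 3.64% against 5.60, 12.8 and 13.8%, were not more frequent. In the sequences above, the exon 1 site of DRD4 holds CGCG at 6 places and GGGG at 8, with overlapping occurrences counted separately. G made up 37.5% of the bases of site windows, against 30.3% in the same genes, 28.3% in the first 300 nt and 26.3% in all coding sequence. A made up 13.3%, against 21.0, 23.7 and 25.8%. These shares are descriptions, since sites of 1 gene share sequence and the windows differ in position and in transcript.

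**Figure D5:**
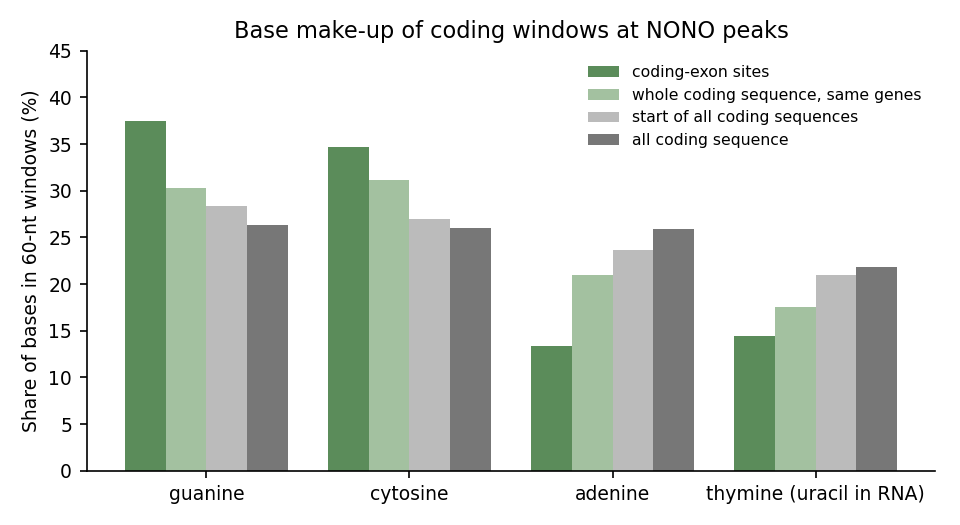
Bars give the share of each base in windows of 60 coding nt at the 302 sites, in all windows of the same genes, in windows of the first 300 nt of all coding sequences, and in all coding sequence. G is at 37.5% and A at 13.3% in site windows, against 26.3% and 25.8% in all coding sequence.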

How the data were processed

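Cells were grown for 40 h, per the labels' protocols, and groups and replicate numbers came from the sample titles. A peak list for each replicate, called over the matching input without pooling, is what the authors deposited. Per peak they deposited a −log10 p and a log2 enrichment over input, both at least 3, and an annotation. The tools include cutadapt 1.9 and STAR 2.4.0i, per the submitters' processing notes, which also name hg19, GRCh38 and hg38. The labels name the seCLIP pipeline, while its peak caller is not given in the sources used here. Coordinates are GRCh38: 9805 of 9850 transcripts (99.5%) named in the lists had the same ends in GENCODE 29 within 1 nt.

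Each peak was placed on the GENCODE 29 transcript with most coding bases under it, with ties going to basic transcripts and then to the APPRIS rank. Treatments were compared by exact two-sided permutation of lists, and coding-exon peaks with others by exact sign flips over 6 lists, with Benjamini-Hochberg adjustment. GC content, planned against all other peaks, was run against other exonic peaks, for want of genome sequence. Named are sites in 3 or more lists or in both lists of 1 treatment only, the 5 strongest peaks per treatment, the 10 genes with most peaks, stop codon genes, and up to 4 members of each gene list. Sequence of chromosome 8, and of sites also annotated as UTR beyond 30 bases, is not shown. Some marker genes are not reported here. The members and gene lists were chosen with earlier results of these data known. Alternatives were stricter limits, other definitions, other reference peaks, equal list lengths, and leaving out lists. The tests and the merging, in Python 3.11.15 with numpy 2.4.6, pandas 2.3.3 and scipy 1.17.1, were tested on simulated data.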

Additional observations from a re-analysis of the deposited data

How the results depend on the processing

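Of 108 alternative values, 77 kept their direction and their side of the threshold or stayed within 1.5 times the count. Differences in coding share are in percentage points. SKBG-1(R) against DMSO turned to -0.18 with a −log10 p of at least 5, to -0.0747 with lists of equal length (the 669 peaks of highest −log10 p), moved to 0.497 with abutting peaks joined, and ranged from -0.38 to 0.802 when 1 list was left out. SKBG-1(S) against DMSO turned to 0.431 with a log2 enrichment of at least 4 and to 0.0151 with abutting peaks joined, and ranged from -0.753 to 0.429 without 1 list. SKBG-1(R) against SKBG-1(S) turned to -0.116 with a log2 enrichment of at least 4, and ranged from 0.245 to 0.501 without 1 list. With the replicate number as a block, the 3 differences stayed 0.211, -0.162 and 0.373, each with an adjusted p of 1. The labels do not say that a number marks a shared culture or day, 2 pairs cannot show it, and no call changed under the replicate block. The cause of these turns was not tested.

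Among comparisons with other peaks, a log2 enrichment of at least 4 turned the enrichment difference to 0.152, the width to 7.17 nt and the overlap to -0.00683 percentage points, and moved the GC difference to 0.263. The overlap difference was 2.19 with overlap of at least 50% of the peak, 9.44 against 5′ UTR peaks, and 2.58 to 7.69 without 1 list. The width also turned to 5.17 nt with a −log10 p of at least 5, to 0.167 against intronic peaks and to 0.447 with means. Without 1 list it ranged from -1.6 to 0.8. The excess in first coding exons ranged from 54.5 to 59.8 percentage points without 1 list and the GC excess over the own coding sequence from 13.9 to 17.1, each at an exact p of 0.0625, the smallest that 5 lists allow. The count of sites in 3 or more lists was 12 with a −log10 p of at least 5 and ranged from 10 to 19 without 1 list. It was 10 without SKBG-1(R) replicate 2, 10 without SKBG-1(S) replicate 2 and 13 without DMSO replicate 2. GC content against intronic peaks was not run. Alternatives that join abutting peaks, use the principal transcript, 5′ UTR peaks or at least 20 bases read, the first-exon comparison and the comparison with the own coding sequence were chosen after seeing the data. List length limits every count: 15 coding-exon peaks in DMSO replicate 1 leave its share between 1.36 and 3.67%.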
